A study of Mus musculus with 10 samples.

Results

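The genes described here are 10 members of the purinergic signalling system: the ectoenzymes Entpd1 and Nt5e, the adenosine receptors Adora2a, Adora2b and Adora3, the ATP-gated channels P2rx4 and P2rx7, and the nucleotide receptors P2ry6, P2ry12 and P2ry14. They were taken by gene symbol from tables of 46956 named loci, and all 10 were present in every table. The RNA came from tumour-associated macrophages sorted from mammary fat pad tumours of BALB/cJ mice that had been given cells of 4T1, a mouse mammary carcinoma line. The sorted cells were live (7AAD-) CD45+ cells that carried CD11b and F4/80 and lacked CD8, Ly6C and Ly6G. Of the samples, 5 came from mice given vehicle (PBS) and 5 from mice given JHU083, a prodrug of the glutamine antagonist 6-diazo-5-oxo-L-norleucine, at 1 mg/kg from day 7 to day 13. Tumours of both groups were harvested and sorted on day 14, and no other allele or agent is named in the labels. The labels do not give the age or sex of the mice, nor whether a sample was 1 mouse or a pool, so the p-values measure the spread between these samples.

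Cells release ATP and other nucleotides when they are stressed, damaged or activated, and macrophages sense them through P2X channels and P2Y receptors. On the cell surface, CD39, the product of Entpd1, removes phosphates from ATP and ADP, and CD73, the product of Nt5e, turns the resulting AMP into adenosine. Adenosine then acts on its own receptors, some of which raise cyclic AMP, and in tumours it is known for restraining immune cells.

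The recovered libraries held 11147723 to 15740488 fragments, so a count of 3 fragments stood at 0.196 to 0.261 CPM, counts scaled to a common library total. The defining macrophage markers were high in both groups: Csf1r, the receptor for colony stimulating factor 1, averaged 1836 CPM in vehicle and 2621 CPM in JHU083. Over the 7 macrophage markers the summed level was 9454 to 12168 CPM in vehicle and 11674 to 14911 CPM in JHU083. All 8 markers of mammary epithelium fell after JHU083, with a summed level of 297 to 649 CPM in vehicle and 104 to 219 CPM in JHU083, and 5 of 7 fibroblast markers fell, with sums of 103 to 226 CPM and 25.9 to 115 CPM. Neutrophil markers summed to 97.2 to 109 CPM in vehicle and 98.2 to 151 CPM in JHU083. Of the 6 tested, S100a8 and S100a9 fell (by 1.40 and 2.18 on the log2 scale) and Csf3r rose (0.53), while Ly6g was at or under 3 fragments in every sample. B cell markers summed to 2.58 to 3.77 CPM and 3.47 to 5.14 CPM. The 1 tested, Cd79b, rose (0.51, edgeR adjusted p = 0.0498), a call lost under 20 of 23 alternatives, and Ms4a1 was at or under 3 fragments throughout. Throughout, the comparison of JHU083 with vehicle is edgeR's quasi-likelihood F-test over 12500 loci with Benjamini-Hochberg adjustment at 0.05. CPM values use library sizes scaled by the trimmed mean of M values (TMM).

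Of the 10 genes, 5 rose after JHU083: P2ry12, P2rx7, P2rx4, P2ry14 and Entpd1. None fell, and 5 did not pass the test: Nt5e, P2ry6, Adora2a, Adora2b and Adora3. Over all loci tested, 18.4% rose and 18.3% fell, 36.7% in either direction. The median log2 fold change of the 10 genes was 0.23, beside 0.01 over all loci tested. With scaling by library size alone, 1564 loci rose and 3141 fell in place of 2296 and 2293, the median over all loci moved to -0.07, and Nt5e fell while Entpd1 no longer passed (0.19 on the log2 scale, adjusted p = 0.0662). Since the RNA came from bulk sorted cells, fewer cells of a type and less RNA per cell cannot be told apart.

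RefSeq promoter windows (GRCm38.p6, the 250 bases before each start site) were found for 8 of the 10 genes. Where a gene had several, the window whose start lay nearest to the GENCODE gene start was used. Those of the 5 genes that rose are printed because they let the genes that moved be compared at the sequence level, and their coordinates are given with each gene. Lower case is the window, 5′ to 3′ on the strand of the gene, and capitals mark a match to one of 4 motifs searched on both strands: the cyclic AMP response element TGACGTCA, its shorter form TGACG, the hypoxia response core ACGTG, and GAGGAA, a core of PU.1 sites. The shorter form lies within the full element. CGTCA in capitals is TGACG read on the other strand.
P2ry12: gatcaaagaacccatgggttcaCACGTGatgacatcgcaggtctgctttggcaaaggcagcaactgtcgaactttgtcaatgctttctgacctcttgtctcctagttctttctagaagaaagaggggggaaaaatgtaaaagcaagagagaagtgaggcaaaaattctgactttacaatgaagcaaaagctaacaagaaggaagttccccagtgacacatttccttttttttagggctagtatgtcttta
P2rx7: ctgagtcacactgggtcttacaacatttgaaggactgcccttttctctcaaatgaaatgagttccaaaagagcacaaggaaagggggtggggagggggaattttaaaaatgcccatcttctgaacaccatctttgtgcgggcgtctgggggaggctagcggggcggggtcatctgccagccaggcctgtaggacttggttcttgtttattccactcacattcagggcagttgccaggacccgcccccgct
P2rx4: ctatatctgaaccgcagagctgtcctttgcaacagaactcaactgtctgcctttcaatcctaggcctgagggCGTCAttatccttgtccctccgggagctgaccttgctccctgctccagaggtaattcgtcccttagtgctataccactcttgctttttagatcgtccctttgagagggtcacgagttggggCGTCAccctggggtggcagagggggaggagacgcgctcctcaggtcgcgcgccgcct
P2ry14: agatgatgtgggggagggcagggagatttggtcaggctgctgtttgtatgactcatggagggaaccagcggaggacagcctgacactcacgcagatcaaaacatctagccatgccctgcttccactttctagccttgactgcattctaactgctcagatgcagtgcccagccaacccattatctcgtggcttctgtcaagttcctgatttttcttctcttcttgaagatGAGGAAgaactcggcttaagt
Entpd1: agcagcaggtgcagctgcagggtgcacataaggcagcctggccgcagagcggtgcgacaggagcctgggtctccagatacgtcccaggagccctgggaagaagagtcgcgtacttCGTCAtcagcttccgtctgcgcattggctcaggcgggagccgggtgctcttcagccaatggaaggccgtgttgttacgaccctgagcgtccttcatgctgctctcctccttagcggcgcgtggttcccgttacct
The full element TGACGTCA occurred in 0 of the 8 windows and in 1.55% of the 32851 windows of the same length. TGACG occurred in 2 of 8, those of P2rx4 and Entpd1, beside 17.8% of all windows. ACGTG occurred in 1 of 8, that of P2ry12, beside 16.6% of all windows. The capitals there, CACGTG, read the same on both strands, so the matches on each strand overlap in a single stretch. GAGGAA occurred in 2 of 8, those of P2ry14 and Adora3, beside 23.3% of all windows. No motif was shared by all 5 windows printed. These matches are letters in a window and were not tested for binding.

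Levels of different genes were compared with the deposited FPKM, which divides by transcript length. P2rx4 and P2ry6 were the highest of the 10 on this scale, with ranges that overlapped: in vehicle, P2rx4 lay between 90.4 and 107 FPKM and P2ry6 between 87.8 and 108 FPKM. Entpd1 followed, at 73.1 ± 3.82 FPKM (SD, n = 5) in vehicle and 88.2 ± 7.69 FPKM (SD, n = 5) in JHU083. P2rx7 came next, at 42.0 FPKM in vehicle and 56.4 FPKM in JHU083. Nt5e, Adora2b, P2ry14 and P2ry12 formed a middle band in vehicle, with means from 15.1 to 22.4 FPKM and ranges that overlapped between neighbours in the order. Adora3 (5.96 FPKM in vehicle) and Adora2a (1.31 FPKM in vehicle) were the lowest in both groups, and their ranges did not overlap. The order depends on the length used: per kilobase of GENCODE exon over all samples, P2ry6 stood at 66.3 CPM, Entpd1 at 37.2 CPM and P2rx4 at 24.9 CPM. In FPKM, P2ry12 moved from rank 8 of 10 in vehicle to rank 5 in JHU083.

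**Figure D1:**
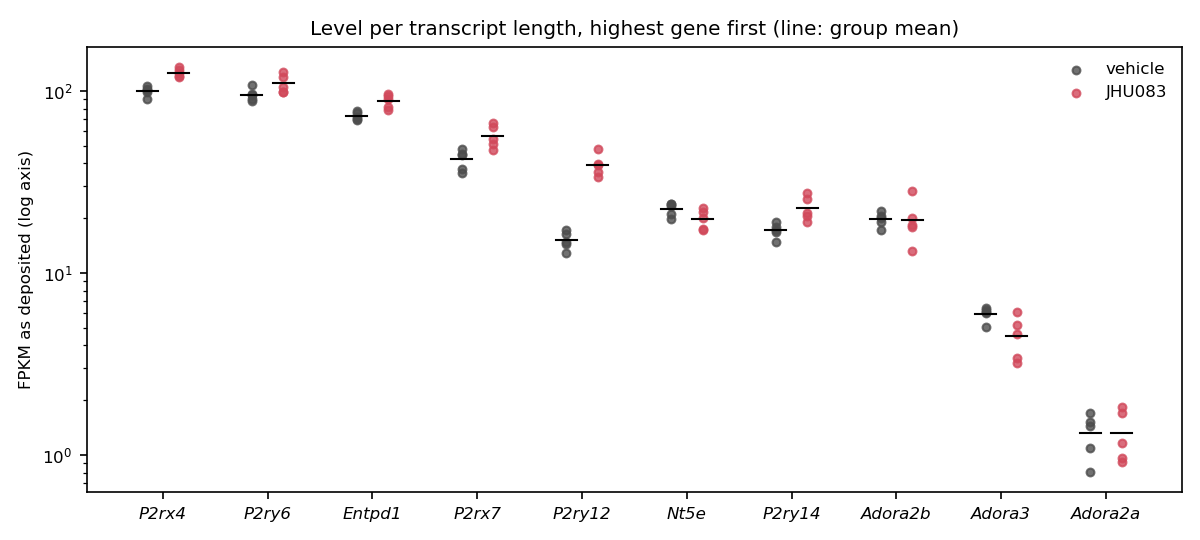
Deposited FPKM (log axis) of the 10 genes in each of the 10 samples, with vehicle in grey and JHU083 in red, ordered from the highest mean to the lowest. Points are samples and lines are group means; P2rx4 and P2ry6 are highest, Adora2a is lowest, and P2ry12 moves from 15.1 to 39.2 FPKM.

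Entpd1, at chr19:40612366-40741602 on the plus strand of GRCm38 (promoter window chr19:40612116-40612365), encodes CD39. It stood at 176, 182, 208, 193 and 184 CPM in vehicle replicates 1 to 5 and at 248, 229.8, 204, 226 and 228 CPM in JHU083 replicates 1 to 5. JHU083 replicate 3 lay below vehicle replicate 3, and the other 4 JHU083 samples lay above every vehicle sample. The rise was 0.27 ± 0.07 on the log2 scale (SE), or 1.20-fold, with an edgeR adjusted p of 0.0103.

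Nt5e, at chr9:88327197-88372092 on the plus strand, encodes CD73. Its level was 97.2, 97.9, 97.8, 81.4 and 87.1 CPM in vehicle and 81.6, 69.4, 72.3, 89.2 and 92.7 CPM in JHU083. JHU083 replicates 2 and 3 were below every vehicle sample and the rest overlapped. The difference was -0.19 ± 0.09 on the log2 scale and did not pass (edgeR adjusted p = 0.130).

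The balance of the enzymes was then taken within each library, as the ratio of Entpd1 to Nt5e fragments, which needs no scaling between libraries. It was 1.81, 1.86, 2.13, 2.37 and 2.12 in vehicle and 3.04, 3.31, 2.82, 2.53 and 2.46 in JHU083. Every JHU083 sample was above every vehicle sample, with means of 2.06 ± 0.229 and 2.83 ± 0.356 (SD, n = 5 each). The difference was 0.46 on the log2 scale. This ratio and the others given were chosen after their values were seen, so they are descriptions with no test.

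None of the 3 adenosine receptors passed the test in either direction. Adora2b, the low-affinity receptor coupled to cyclic AMP production, lies at chr11:62248984-62266453 on the plus strand. Its mean level was 35.0 ± 3.08 CPM in vehicle against 34.4 ± 9.58 CPM after JHU083 (SD, n = 5 each), a log2 difference of -0.02 ± 0.15 (edgeR adjusted p = 0.921). The JHU083 samples were more scattered, at 49.5, 23.1, 31.9, 32.4 and 35.3 CPM against 30.6 to 38.9 CPM in vehicle. JHU083 replicate 1 was above and replicate 2 below every vehicle sample.

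Adora2a, the high-affinity receptor of the same coupling, lies at chr10:75316877-75334784 on the plus strand. It was barely present, at 2.04 to 4.27 CPM in vehicle and 2.31 to 4.65 CPM in JHU083, with a mean of 3.31 CPM in both groups. At that level its difference, 0.00 ± 0.25 on the log2 scale (edgeR adjusted p = 0.991), was the least precise of the 10. Adora3, which couples to inhibition of cyclic AMP, lies at chr3:105870858-105908926 on the plus strand and shares its locus in the tables with Tmigd3. The 2 genes share 779 bases of annotated exon, 20.9% of the exon length of Adora3, so the value covers both. The locus averaged 11.6 ± 1.17 CPM in vehicle and 9.95 ± 2.31 CPM in JHU083, a difference of -0.23 ± 0.15 on the log2 scale (edgeR adjusted p = 0.258).

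Both ATP-gated channels rose. P2rx4, at chr5:122707544-122729738 on the plus strand (promoter window chr5:122707294-122707543), encodes a channel of high ATP sensitivity that is found largely on lysosomes in macrophages. It measured 147, 139.6, 143, 156 and 157 CPM in vehicle and 209, 184, 224, 198 and 190.0 CPM in JHU083. The groups did not overlap. The rise was 0.44 ± 0.07 on the log2 scale, or 1.35-fold (edgeR adjusted p = 0.000385).

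P2rx7, at chr5:122643911-122691432 on the plus strand (promoter window chr5:122643677-122643926), encodes the channel that needs high ATP and is known for triggering the NLRP3 inflammasome. It measured 97.5, 128, 147, 121 and 108 CPM in vehicle and 173, 202, 139, 172 and 187 CPM in JHU083. JHU083 replicate 3 fell within the vehicle range and the other 4 were above it. The rise was 0.54 ± 0.12 on the log2 scale, or 1.45-fold (edgeR adjusted p = 0.00278). The ratio of P2rx7 to P2rx4 fragments was 0.816 ± 0.157 in vehicle and 0.879 ± 0.180 in JHU083 (SD, n = 5 each).

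P2ry12 rose the most of the 10. It encodes the Gi-coupled ADP receptor known from platelets and microglia, and lies at chr3:59216272-59262871 on the minus strand (promoter window chr3:59262986-59263235). It measured 29.1, 33.5, 38.4, 35.6 and 32.3 CPM in vehicle and 79.6, 100.4, 69.7, 83.0 and 67.6 CPM in JHU083. The lowest JHU083 sample was well above the highest vehicle sample. The group means were 33.8 ± 3.50 and 80.0 ± 13.1 CPM (SD, n = 5 each), a rise of 1.24 ± 0.11 on the log2 scale or 2.37-fold (edgeR adjusted p = 4.81e-06).

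P2ry14, the receptor for UDP-glucose and related UDP-sugars, lies at chr3:59113855-59153618 on the minus strand (promoter window chr3:59153493-59153742). It measured 24.9, 26.5, 27.1, 24.9 and 30.8 CPM in vehicle and 30.6, 34.3, 35.8, 42.7 and 41.6 CPM in JHU083. JHU083 replicate 1 lay just under vehicle replicate 5, and the other 4 were above all vehicle samples. The rise was 0.46 ± 0.10 on the log2 scale, or 1.38-fold (edgeR adjusted p = 0.00342).

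P2ry6, a Gq-coupled receptor for UDP known for promoting phagocytosis, lies at chr7:100937630-100974649 on the minus strand. It measured 163 to 203 CPM in vehicle and 183 to 235 CPM in JHU083. Only JHU083 replicates 2 and 3 were above every vehicle sample, and the difference of 0.20 ± 0.09 on the log2 scale did not pass (edgeR adjusted p = 0.0977). Of the 10 genes, P2rx4 and P2ry12 thus had groups that did not overlap upward and none did downward, beside 11.2% and 11.1% of all loci tested.

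**Figure D2:**
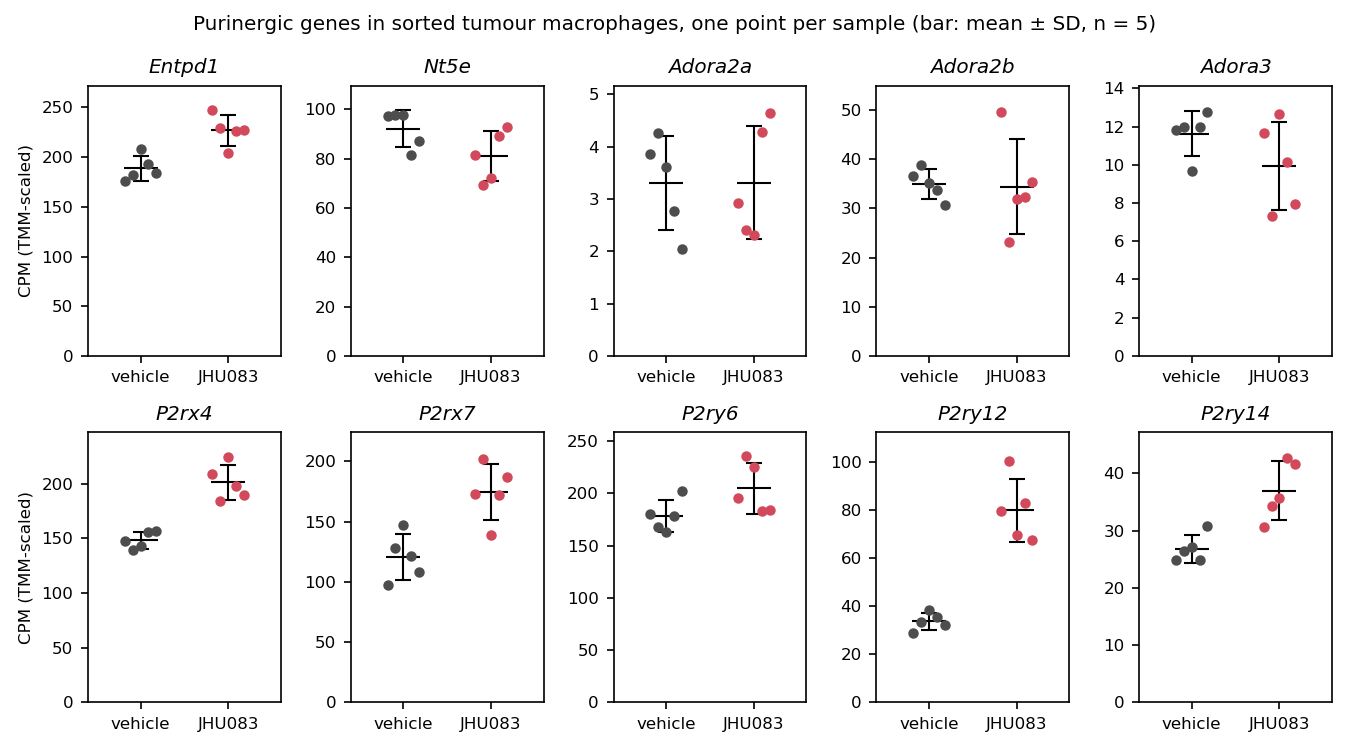
CPM of each of the 10 genes by sample, 1 panel a gene, with vehicle and JHU083 as separate columns of 5 points and the group mean and SD marked. P2ry12 and P2rx4 show no overlap between groups, and Adora2b shows wider scatter in JHU083 (SD 9.58 CPM) than in vehicle (SD 3.08 CPM).

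P2ry12 and P2ry14 lie 62654 bases apart on chromosome 3, on the same strand, among further receptor genes, and both overlap the opposite-strand gene Med12l. P2ry13, another ADP receptor, lies 5390 bases from P2ry12 and rose from 60.7 ± 2.72 to 84.0 ± 8.07 CPM (SD, n = 5 each), by 0.47 ± 0.08 on the log2 scale with an edgeR adjusted p of 0.000493. Gpr171, 12034 bases from P2ry14, encodes a further G protein-coupled receptor and rose from 74.9 to 119.6 CPM, by 0.68 ± 0.07 (edgeR adjusted p = 1.50e-05). The host gene Med12l held at most 71 fragments in any sample and did not pass, at 0.26 ± 0.22 (edgeR adjusted p = 0.374), nor did Igsf10, 53864 bases from P2ry12 (0.55 ± 0.30, edgeR adjusted p = 0.156). Over all loci tested, 18.4% rose. Med12l shares 9 exon bases with P2ry12, and the library kit named in the labels is not described as marking strand.

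The ratio of P2ry12 to P2ry14 fragments was 1.17, 1.26, 1.42, 1.43 and 1.05 in vehicle and 2.60, 2.92, 1.95, 1.94 and 1.63 in JHU083, with no overlap. The means were 1.27 ± 0.163 and 2.21 ± 0.535, a log2 difference of 0.78. P2rx7 and P2rx4 lie 16112 bases apart on chromosome 5. Beside them, Camkk2, a calcium-dependent kinase gene on the opposite strand, rose by 0.35 ± 0.09 (edgeR adjusted p = 0.0103), and Anapc5, a subunit of the anaphase-promoting complex, fell by 0.27 on the log2 scale with an SE of 0.07 (edgeR adjusted p = 0.00649). The other 2 tested near the channels did not pass: Ift81 at 0.28 ± 0.24 (edgeR adjusted p = 0.384) and Gm43541 at -0.06 ± 0.27 (0.873). Of all loci tested, 36.7% passed in either direction.

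**Figure D3:**
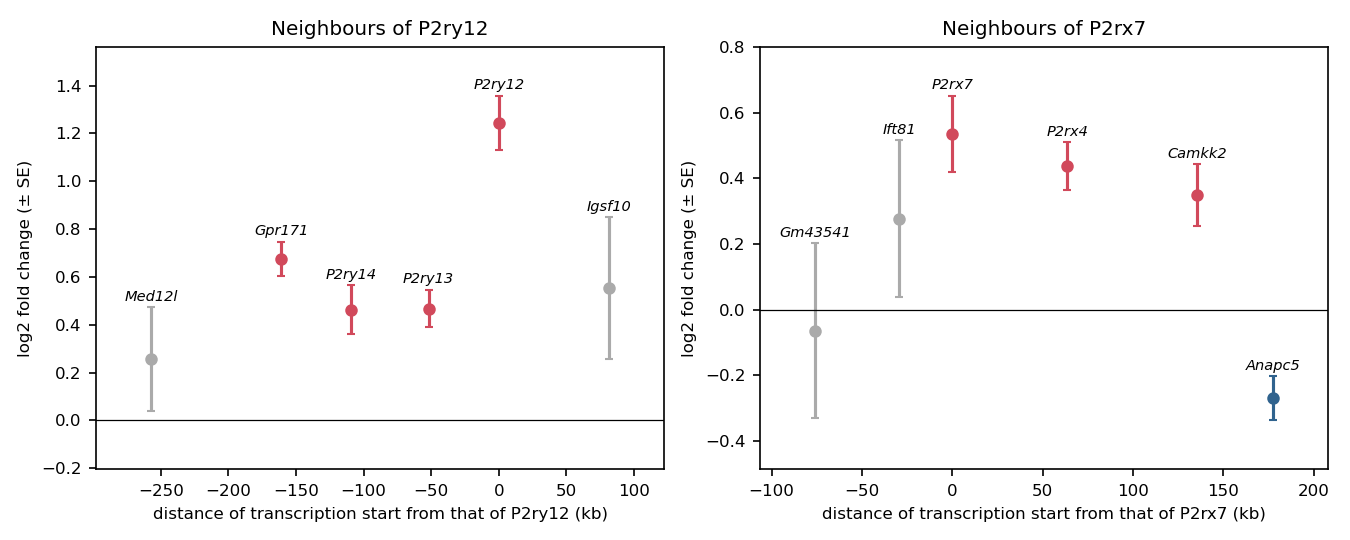
Log2 fold change of JHU083 against vehicle, with SE, for tested genes lying within 100 kb of P2ry12 (left) and P2rx7 (right), against the distance in kilobases between their start and that of the named gene. Gpr171, also on the left, was added as a neighbour of P2ry14, 12034 bases from it, and lies more than 100 kb from P2ry12. Red points rose, blue fell and grey did not pass; P2ry12 (1.24) is the highest on the left, and Anapc5 (-0.27) is the one that fell on the right.

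Of the other receptors listed, 4 of 9 tested rose and 0 fell, beside 18.4% of all loci that rose. The other 5 did not pass, 13 were listed, and the median log2 fold change was 0.35. The 4 include Gpr34, whose known ligand is a lipid. With scaling by library size alone, P2ry2 and P2rx6 no longer passed, which leaves 2 that rose. Gpr34, a receptor of the P2Y12-like family known to bind lysophosphatidylserine, rose from 48.7 ± 2.82 to 84.2 ± 5.82 CPM, by 0.79 ± 0.08 (edgeR adjusted p = 6.77e-06). P2ry2, a receptor for ATP and UTP 21919 bases from P2ry6, rose from 19.5 to 24.9 CPM (0.35 ± 0.10, edgeR adjusted p = 0.0159), a call lost under 3 of 23 alternatives. P2rx6 rose from 1.05 to 1.98 CPM (0.92 ± 0.33, edgeR adjusted p = 0.0416), a call lost in 8 of the 10 fits that leave out 1 sample. P2rx2, P2rx3 and P2ry4 were at or under 3 fragments in every sample, and Adora1 had 1 to 9 fragments.

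Among other extracellular nucleotide enzymes, 2 of 6 tested rose and 1 fell, beside 36.7% of all loci that passed in either direction. Enpp1, which splits ATP to AMP and pyrophosphate, rose from 37.8 ± 3.94 to 60.5 ± 4.90 CPM (0.68 ± 0.09, edgeR adjusted p = 7.43e-05). Cd38, an NAD glycohydrolase, rose from 134 to 173 CPM (0.36 ± 0.06, edgeR adjusted p = 0.000551). Entpd2, an ATPase related to CD39, is listed in 1 locus with Npdc1; that locus fell from 8.08 to 1.65 CPM, by 2.29 on the log2 scale (edgeR adjusted p = 0.000167). The epithelial markers fell with it (8 of 8), and their part in the fall was not tested. Of the Entpd enzymes inside the cell, 1 of 3 tested passed, a share near that of all loci: Entpd6 fell by 0.55 on the log2 scale (edgeR adjusted p = 0.00184).

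The list of adenosine uptake and metabolism gave 0 that rose and 2 that fell among 9 tested, with a median of -0.16, beside 18.3% of all loci that fell. The 2 that fell, Ahcy and Pnp, neither take up nor directly break down adenosine. Ahcy, which splits S-adenosylhomocysteine to adenosine and homocysteine, fell from 50.8 ± 4.52 to 26.7 ± 2.34 CPM, by 0.93 on the log2 scale (edgeR adjusted p = 6.80e-06). Pnp, which acts on inosine downstream of adenosine deaminase, fell from 199.7 ± 19.8 to 127 ± 7.01 CPM, by 0.65 on the log2 scale (edgeR adjusted p = 3.79e-05). The deaminase Ada (0.19, edgeR adjusted p = 0.141), the kinase Adk (-0.12, 0.340) and the transporter Slc29a1 (-0.04, 0.688), named after their values were seen, did not pass.

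Routes of ATP release gave 2 that rose and 2 that fell among 5 tested, beside 36.7% of all loci that passed in either direction. Panx1, a plasma membrane channel for ATP, fell from 41.6 to 32.3 CPM (-0.37 ± 0.08, edgeR adjusted p = 0.00307), and Gja1, which encodes connexin 43, fell from 60.8 ± 21.5 to 26.2 ± 8.91 CPM (-1.21 ± 0.26, edgeR adjusted p = 0.00276). Alongside Gja1, 8 of 8 epithelial and 5 of 7 fibroblast markers fell, and their part was not tested. Ano6, a lipid scramblase, rose by 0.30 ± 0.08 (edgeR adjusted p = 0.00894), a call lost under 3 of 23 alternatives, library size alone among them. Lrrc8a, a volume-regulated channel subunit, shares a locus with 4 other symbols. That locus rose by 0.30 ± 0.07 (edgeR adjusted p = 0.00400), a call lost under 2 of 23 alternatives.

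Signalling through cyclic AMP gave 9 that rose, 1 that fell and 11 that did not pass among 21 tested, with a median of 0.33, beside 18.4% of all loci that rose and 18.3% that fell. Rgs1, a regulator that shortens G protein signals, rose from 438 to 684 CPM (0.64 ± 0.12, edgeR adjusted p = 0.000794), and Rgs2 from 464 to 667 CPM (0.53 ± 0.09, edgeR adjusted p = 0.000455). Crem, a transcription factor of the cyclic AMP response, rose by 0.58 ± 0.13 (edgeR adjusted p = 0.00347). The phosphodiesterase genes Pde3b (0.56 ± 0.15, edgeR adjusted p = 0.00839) and Pde4d (0.52 ± 0.12, edgeR adjusted p = 0.00432) rose as well. Rapgef3, the cyclic AMP sensor EPAC1, fell from 2.79 to 0.592 CPM (-2.22 ± 0.30, edgeR adjusted p = 8.6e-05). It held 5 to 49 fragments across all samples. Of the 4 endothelial markers tested, Pecam1 fell from 150.5 to 52.5 CPM (-1.52, edgeR adjusted p = 0.00035), Tie1 rose from 7.16 to 10.6 CPM (edgeR adjusted p = 0.00425) and the other 2 did not pass. Their part was not tested.

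Of the 9 genes tested that act with or after the P2X7 channel, 2 rose, 2 fell and 5 did not pass, with a median of -0.03, beside 36.7% of all loci that passed in either direction. Nek7, a kinase needed by the NLRP3 inflammasome, rose from 92.9 to 134 CPM (0.53 ± 0.08, edgeR adjusted p = 0.000157), and Ano6 rose as above. Panx1 fell, and Pycard, the inflammasome adaptor, fell by 0.32 on the log2 scale (edgeR adjusted p = 0.0325), a call lost in 7 of the 10 fits that leave out 1 sample. Nlrp3 (0.04, edgeR adjusted p = 0.818), Casp1 (-0.03, 0.855) and Il1b (-0.07, 0.741), named after their values were seen, did not pass.

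**Figure D4:**
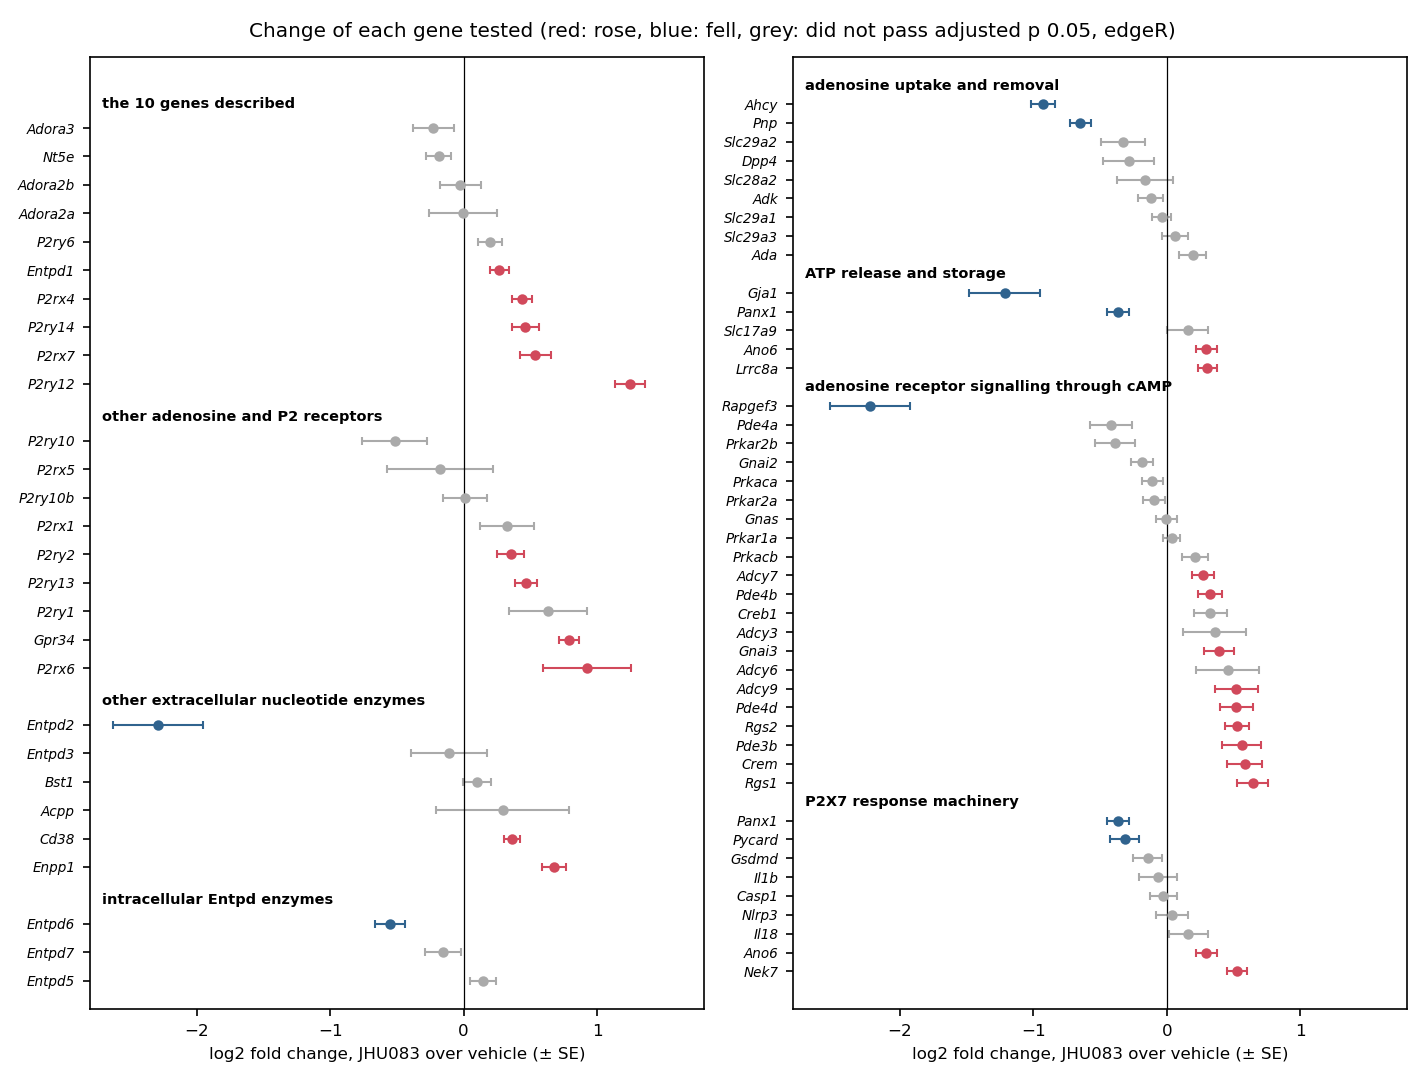
Log2 fold change of JHU083 against vehicle with SE for each tested gene, grouped by list; red rose, blue fell and grey did not pass the edgeR test at an adjusted p of 0.05. The 10 genes described have 5 red points and 0 blue. The list labelled adenosine uptake and removal has 0 red and 2 blue, Ahcy and Pnp, which neither take up nor directly break down adenosine.

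P2ry12 is also known as a microglial gene, so the other genes used to recognise microglia were measured beside it. Of 5 tested, 4 rose and 1 fell, beside 18.4% and 18.3% of all loci, and their summed level was 906 to 1120 CPM in vehicle and 1230 to 1577 CPM in JHU083. Gpr34, already counted above among the receptors, is 1 of the 4 that rose. Cx3cr1, the fractalkine receptor, rose by 0.69 ± 0.13 (edgeR adjusted p = 0.000852) and Olfml3 by 0.60 ± 0.10 (edgeR adjusted p = 0.000463). Tmem119 fell by 0.31 on the log2 scale (edgeR adjusted p = 0.0487), a call lost under 9 of 23 alternatives, and Sall1 was at or under 3 fragments in every sample. Among the 7 macrophage genes, 3 rose and 4 did not pass, beside 18.4% of all loci that rose. Adgre1, which encodes F4/80, rose by 0.63 ± 0.07 (edgeR adjusted p = 2.18e-05), Csf1r by 0.51 ± 0.09 (edgeR adjusted p = 0.000632) and Mertk, an efferocytosis receptor, by 0.97 ± 0.09 (edgeR adjusted p = 4.81e-06). The other 4 were Cd68 (0.16), C1qa (0.15), C1qb (0.12) and Fcgr1 (-0.21), which passed as lower under 3 of 23 alternatives. Dendritic cell markers summed to 8.68 to 11.0 CPM in vehicle and 12.8 to 26.3 CPM in JHU083, with 1 of 5 tested higher (Cd209a, 1.69 to 7.24 CPM, edgeR adjusted p = 0.000363). Eosinophil markers summed to 3.68 to 9.88 CPM and 6.64 to 16.7 CPM, with 1 of 3 tested higher (Siglecf, 0.89, edgeR adjusted p = 0.0115). Monocyte markers summed to 322 to 387 CPM and 294 to 527 CPM, with 1 of 4 tested higher (Chil3, 2.08, edgeR adjusted p = 0.00374). T and NK cell markers summed to 28.3 to 30.8 CPM and 38.1 to 55.5 CPM, with 1 of 3 tested higher (Cd4, 1.12, edgeR adjusted p = 2.07e-05). Cd4 itself averaged 14.7 CPM in vehicle and 31.8 CPM in JHU083. The loci of Klrb1c (-0.38, edgeR adjusted p = 0.0563) and Foxp3 (-0.0013, 0.997) did not pass. Cd3e, Cd3d, Cd3g and Cd8a held at most 10, 8, 15 and 6 fragments in any sample. Mast cell markers summed to 12.7 to 15.9 CPM and 10.5 to 24.7 CPM, with Cpa3 higher (0.79) and Mcpt4 lower (-0.79) among 4 tested, calls lost under 13 and 12 of 23 alternatives. The part of any of these lists in the rise of the 5 genes was not tested.

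The loci whose profile over the 10 samples was nearest to each gene that rose were found by the mean absolute difference of centred log2 CPM over 10117 loci. Nearest to P2ry12 were Cd33 (0.109) and Mturn (0.115). Epb41l2 (0.0320) and Specc1l (0.0437) were nearest to Entpd1, and Rnf130 (0.0420) and Sdcbp (0.0461) to P2rx4. Usp8 (0.0528) and Zdhhc20 (0.0538) were nearest to P2rx7, and Slc41a2 (0.0527) to P2ry14. The likeness is a description of these samples.

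The libraries also differed at a locus regardless of group: the ribosomal RNA locus Rn18s-rs5 was listed at 0 in vehicle replicates 2, 4 and 5 and JHU083 replicates 1 and 3, and above 0 in the other 5. Within the samples above 0, P2ry12 rose by 1.31 (edgeR adjusted p = 0.00071) and within those at 0 by 1.15 (0.00203). For P2rx4 the values were 0.39 (0.0277) and 0.53 (0.0229), so both genes passed in both sets. P2rx7 was 0.61 (0.0202) above 0 and 0.39 (0.109) at 0, and P2ry14 was 0.61 (0.0112) and 0.28 (0.282). Entpd1 was 0.24 (0.161) and 0.28 (0.186), passing in neither of these smaller sets. Each bracketed number is the edgeR adjusted p within that set of samples.

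**Figure D5:**
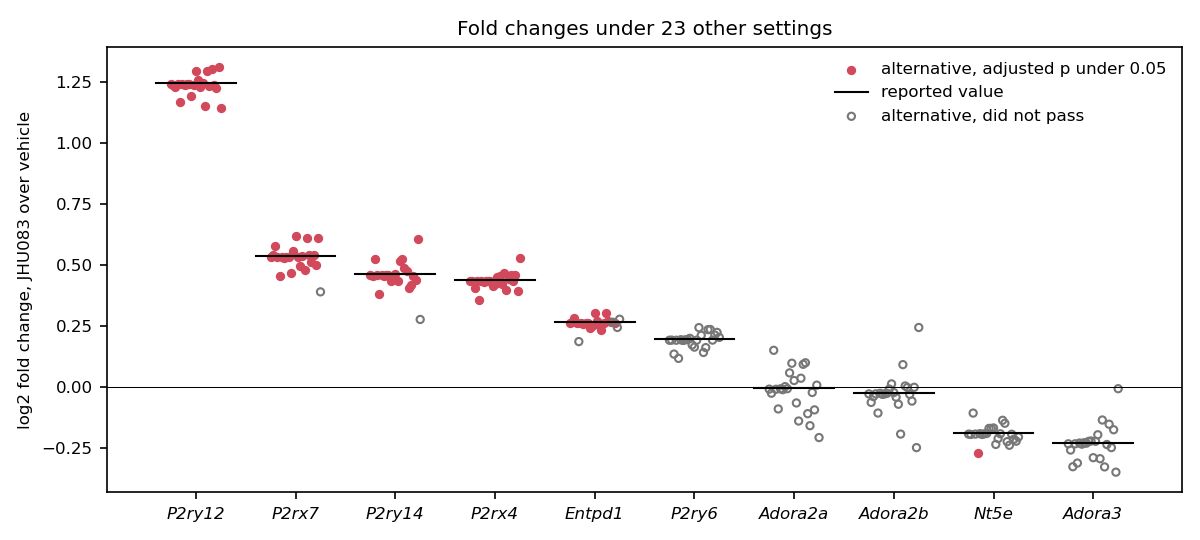
Log2 fold change of JHU083 against vehicle for the 10 genes under the reported test (line) and 23 alternatives (points; filled where the adjusted p was under 0.05), with 1 column a gene. P2ry12 stays between 1.15 and 1.31 and P2rx4 between 0.36 and 0.53, while Adora2a and Adora2b cross 0.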

How the data were processed

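RNA of 10 sorted macrophage samples (5 vehicle, 5 JHU083, grouped by the labels' treatment) was sequenced as paired-end poly(A) libraries, per the labels' protocols. The submitters' processing notes name bcl2fastq 2.17.1.14, FastQC 0.11.2, TopHat2 2.1.1 and the build GRCm38; the counting program and annotation are not given in the sources used here. Per the file headers, the authors deposited raw counts, but the values are not whole and were taken for expected counts. In each sample they were whole multiples (tolerance 0.02) of a step of 0.888 to 1.17 for 99.16% (lowest sample) or more of positive values, so dividing by the step and rounding gave the whole fragments tested, an inference from the values. The authors deposited FPKM, as the values show, in the other column, used here only for levels between genes. The 1 locus with no symbol (0.00132% to 0.00209% of fragments) was left out, and 1060 loci list more than 1 symbol.

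Loci were filtered with filterByExpr, scaled with TMM and tested with edgeR 4.0.16 (R 4.3.3) without covariates. On simulated counts for this comparison (12500 loci, 200 changed by 1 on the log2 scale) it recovered 85% of changed loci with 4.49% false calls. In the data 36.7% of loci passed, and the rises of Entpd1, P2rx4, P2rx7 and P2ry14 were only 0.27 to 0.54. The simulated rates therefore do not carry over to these calls. Fragments are not marked by molecular identifiers, so the floor of 3 counts covers counting error only. Ratios of fragments within a library were described without a test. Gene positions come from GENCODE M21 by symbol, and promoters from RefSeq (GRCm38.p6).

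The 10 genes and all lists were chosen with earlier results of these data known. Named genes are the 10, up to 6 of each list that passed (largest change first), and for each of the 10 that passed the 2 nearest loci with an average log2 CPM of at least 2; some genes these rules or lists hold are not reported here. Genes near the receptors and those said to be named after their values were seen are additions, as are the marker genes printed. The alternatives tried were limma-voom (limma 3.58.1), plain or weighted by sample quality, DESeq2 1.42.0, other scalings and filters, the deposited values rounded, loci listed at 0 left out, status at Rn18s-rs5, leaving out each sample, and the replicate number as a block.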

Additional observations from a re-analysis of the deposited data

Results flagged for a closer look

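The spread of the named genes was examined in 156 groups of 5 samples, and 6 held a sample whose gap to its nearest neighbour exceeded 0.71 of the group's range; chance gives about 1 in 20 groups. Among the 10 genes this was Adora3 alone, where vehicle replicate 3 was lowest at 3.29 log2 CPM beside 3.58 to 3.69 in the others (gap share 0.724). P2rx6 was highest in vehicle replicate 4 at 1.10 log2 CPM, beside -0.14 to 0.04 in the others. Pycard was highest in JHU083 replicate 3, at 5.29 beside 4.81 to 4.89, and Casp1 lowest in JHU083 replicate 2, at 4.60 beside 5.05 to 5.14 (log2 CPM). Of the loci nearest in profile, Epb41l2 was highest in vehicle replicate 3, at 7.83 beside 7.60 to 7.66, and Zdhhc20 lowest in JHU083 replicate 3, at 6.29 beside 6.64 to 6.76 (log2 CPM). No cause was tested for any of these.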

How the results depend on the processing

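P2ry12 (1.15 to 1.31 on the log2 scale) and P2rx4 (0.36 to 0.53) kept their direction and passed under all 23 alternatives. All 5 genes that rose kept that call in the 10 fits that left out 1 sample. Of 230 comparisons of the 10 genes with an alternative, 210 kept direction and side of the threshold, 6 lost and 1 gained the call, and 13 changed sign; the last were Adora2a and Adora2b, whose differences lay near 0. Adora2a became 0.15 with voom sample weights, 0.0026 with the deposited values rounded and 0.0085 in the samples with Rn18s-rs5 above 0, and ranged from -0.16 to 0.10 with 1 sample left out. Adora2b became 0.24 in the samples with Rn18s-rs5 at 0, and ranged from -0.19 to 0.093 with 1 left out. In the samples at 0, Casp1 was 0.094, Il1b 0.22, Slc29a1 0.051, Fcgr1 0.0028, Med12l -0.37 and the ratio of P2rx7 to P2rx4 -0.14. Nlrp3 was -0.040 with library size alone and -0.10 in the samples above 0. With 1 sample left out, Nlrp3 ranged from -0.098 to 0.12, Casp1 from -0.064 to 0.059, Il1b from -0.18 to 0.021 and Gm43541 from -0.15 to 0.0051. Over all 22 alternatives with a value for it, Gm43541 ranged from -0.24 to 0.099. Camkk2 lost its call under 3 alternatives and Anapc5 under 2. The causes were not tested.

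Over all loci, 1335 rose and 1518 fell in the samples above 0, and 532 and 586 in those at 0, where fewer samples enter and 2 of the 10 genes rose. Leaving out 1 sample gave 1821 to 2899 that rose and 1900 to 2930 that fell. With library size alone, 1 of the 10 fell (Nt5e, -0.27, adjusted p = 0.0393). Per kilobase of GENCODE exon the order of levels put P2ry6 at rank 1, Entpd1 at 2, P2rx4 at 3, Adora2b at 6, Nt5e at 7 and P2ry14 at 8. Same-numbered samples did not deviate together (correlations from -0.57 to 0.09), so the numbers were not taken to pair samples. With the replicate block, 1612 loci rose and 1757 fell, and 4 of the 10 genes rose; Entpd1 had an adjusted p of 0.054. Adora2a, the lowest of the 10 at 3.31 CPM, had the widest SE, 0.25.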
